A study of Mus musculus with 14 samples.

Results

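The COPI coatomer is a protein coat of vesicles that bud from the Golgi. The genes described here are its subunit genes, Copa, Copb1, Copb2, Copg1, Copg2, Arcn1, Cope, Copz1 and Copz2. They are 9 of the 35389 gene identifiers in a table of NSN and SN oocytes and 9 of the 35341 symbols in a second table, the rescue set. They were chosen from the data: Copb1 was about 5 times as high with Rnaseh1 overexpression in SN oocytes, and the other 8 genes were added as subunits of the same coat. Differences within the SN libraries are therefore given as a description, without a test. Each of the 9 genes reached 1 TPM (transcripts per 1000000 transcripts) in at least 2 libraries of both tables, so none was lost to the filter on low values.

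Polyadenylated RNA of mouse oocytes was sequenced in 14 libraries that form 7 groups of 2. The first table holds NSN oocytes (non-surrounded nucleolus, the earlier and transcribing state) with overexpressed Rnaseh1 (oe-Rnaseh1) or with mCherry (oe-mCherry), a red fluorescent protein used as the control, and SN oocytes (surrounded nucleolus, the later and largely silent state) with oe-Rnaseh1 or with oe-mCherry. The rescue set holds oocytes with oe-Rnaseh1 plus oe-Supt6, with oe-Rnaseh1, and with oe-mCherry, and its labels name no stage. Rnaseh1 encodes a nuclease that digests the RNA of R-loops, in which RNA is paired with DNA, and Supt6 encodes a transcription elongation factor and histone chaperone. The series title sets the question of what R-loops maintain during SN-oocyte development. Strain, age, genotype, the constructs used and the number of oocytes in a library are not given in the sources used here. Nor is it stated that replicates of a group are separate animals or cultures, so p-values measure only the spread between libraries, which may be technical.

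Coatomer is recruited to Golgi membranes as a complete complex by the GTPase Arf1 once its exchange factor Gbf1 has loaded it with GTP, and the coat is shed after an Arf GTPase-activating protein acts. COPI vesicles return escaped ER proteins and cargo receptors from the Golgi to the ER and carry cargo between Golgi cisternae. The beta, gamma, delta and zeta subunits form the F-subcomplex, which resembles the clathrin adaptors, and the alpha, beta prime and epsilon subunits form the B-subcomplex, whose WD-repeat proteins recognise dilysine signals on cargo. Gamma and zeta each have a pair of genes, Copg1 with Copg2 and Copz1 with Copz2. Oocytes use the ER and Golgi to secrete the zona pellucida and growth factors.

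Promoters of 8 of the 9 genes were found in the RefSeq set (GRCm38.p6, 250 bases before to 50 after the start), and 3 are shown because the results below turn on them: Copb1, the gene highest with Rnaseh1, and the zeta genes Copz1 and Copz2, which moved in opposite directions in the rescue set. Capitals mark matches on either strand to the GC box (GGGCGG), the CCAAT box (CCAAT), an ETS motif (CCGGAA) or the Golgi stress response element ACGTGGC. Matches may overlap.
Copb1 (chr7:114254631-114254930, minus strand): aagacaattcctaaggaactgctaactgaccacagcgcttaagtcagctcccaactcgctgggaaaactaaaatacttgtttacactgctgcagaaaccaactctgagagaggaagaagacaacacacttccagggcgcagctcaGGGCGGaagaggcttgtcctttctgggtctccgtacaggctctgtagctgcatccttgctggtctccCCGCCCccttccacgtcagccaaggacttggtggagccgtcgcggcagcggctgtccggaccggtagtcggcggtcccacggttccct
Copz1 (chr15:103272638-103272937, plus strand): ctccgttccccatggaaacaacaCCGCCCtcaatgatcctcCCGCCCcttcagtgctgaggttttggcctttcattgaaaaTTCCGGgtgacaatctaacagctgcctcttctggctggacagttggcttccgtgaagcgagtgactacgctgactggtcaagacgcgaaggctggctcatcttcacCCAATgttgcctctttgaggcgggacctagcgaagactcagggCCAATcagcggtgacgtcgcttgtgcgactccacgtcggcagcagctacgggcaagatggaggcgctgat
Copz2 (chr11:96849626-96849925, plus strand): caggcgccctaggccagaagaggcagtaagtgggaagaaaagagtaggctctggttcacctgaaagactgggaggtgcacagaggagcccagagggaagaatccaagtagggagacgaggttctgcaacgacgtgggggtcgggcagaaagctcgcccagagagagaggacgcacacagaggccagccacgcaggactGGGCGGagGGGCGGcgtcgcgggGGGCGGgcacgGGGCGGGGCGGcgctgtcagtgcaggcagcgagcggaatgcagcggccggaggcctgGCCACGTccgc
The Copb1 window held 2 GC boxes and no CCAAT box, Copz1 held 2 GC boxes, 2 CCAAT boxes and 1 ETS motif, and Copz2 held 5 GC boxes and no CCAAT box. A GC box was present in 7 of the 8 member promoters, against 35.7% of 32851 RefSeq promoters of the same length. CCAAT occurred in 2 of the 8 (37.4% of all promoters), CCGGAA in 4 (14.9%) and ACGTGGC in 2, Copg1 and Copz2 (2.58%). TATAAA (13.6%), the E-box CACGTG (7.15%) and the palindromic NRF1 motif (0.971%) were in none of the 8. These letters are a description of the windows and do not show that a factor binds there. The 8 windows ran from 52.3% GC (Cope) to 69% (Copg2), where the median of all promoters was 52.7%. The part of GC content in the motif counts was not tested.

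Rnaseh1 and Supt6 levels went with the overexpression labels, and the libraries differed in quality. The NSN and SN labels were not checked against markers of the stage. Rnaseh1 averaged 487 ± 365 TPM in NSN Rnaseh1 oocytes against 122 ± 20.5 TPM in NSN mCherry oocytes, 1222 ± 196 TPM in SN Rnaseh1 against 106 ± 35.4 TPM in SN mCherry oocytes, and 934 ± 437 TPM in rescue Rnaseh1 against 119 ± 7.69 TPM in rescue mCherry oocytes (SD, n = 2 each). Supt6 averaged 24.6 ± 5.08 TPM with Rnaseh1 plus Supt6, against 2.78 ± 0.33 TPM with Rnaseh1. Rnaseh1 itself also differed between these groups, at 2144 ± 179 TPM with Rnaseh1 plus Supt6 against 934 ± 437 TPM with Rnaseh1 (2.30-fold, limma adjusted p = 0.00622), a call that ended with the GC trend removed (adjusted p = 0.382). Between 10036 and 12230 genes per library reached 1 TPM, and read depth is not known from TPM. The replicates of NSN Rnaseh1 and of SN mCherry differed most. The SD over genes of the difference between replicates was 1.28 and 1.05 there on the log2 scale. It was 0.35 to 0.69 in the other 5 groups. That SD does not show which library of a pair stood apart, and replicate 2 of each was left out in an added setting. The 12 oocyte markers averaged at least 1 TPM in every group, but their summed level moved with the groups, at 5181 to 5436 TPM in the rescue Rnaseh1 libraries, 17643 to 18744 TPM with Supt6 added and 16995 to 18353 TPM in the mCherry libraries. In the first table that sum was 5021 to 12757 TPM in NSN Rnaseh1, 10868 to 13877 TPM in NSN mCherry, 5606 to 5623 TPM in SN Rnaseh1 and 6223 to 20161 TPM in SN mCherry libraries. Of 12 granulosa and cumulus markers, 3 averaged 1 TPM or more, and the list summed to 23.8 to 56.3 TPM. Cyp19a1 ran from 13.0 to 46.1 TPM, Nr5a2 from 4.20 to 8.19 TPM and Kitl from 0.83 to 6.64 TPM, while Amh, Foxl2 and Amhr2 were listed at 0 in all 14 libraries. The part of these differences in the results was not tested. Fewer cells of a type and less RNA per cell cannot be told apart in these libraries, whose number of oocytes is not given.

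Copb1, the beta subunit of the F-subcomplex (ENSMUSG00000030754.9, chromosome 7, 114215559 to 114254711, minus strand, GRCm38), was the most abundant COPI mRNA in 11 of the 14 libraries. In SN oocytes it reached 990 and 1436 TPM with Rnaseh1, against 252 and 252 TPM with mCherry, a 4.81-fold difference of means. In NSN oocytes it was 296 and 339 TPM with Rnaseh1 and 298 and 293 TPM with mCherry. In the rescue set it was 272 and 325 TPM with Rnaseh1 plus Supt6, 456 and 422 TPM with Rnaseh1, and 255 and 277 TPM with mCherry. Both SN Rnaseh1 libraries lay far above the other 12, the rescue Rnaseh1 libraries came next, and the remaining 10 stayed between 252 and 339 TPM. Among all genes of its library Copb1 ranked 187 and 102 in the SN Rnaseh1 libraries, against 752 and 787 in SN mCherry.

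The other 8 subunit mRNAs did not share the SN difference of Copb1. In SN oocytes 1 member was higher in both Rnaseh1 libraries than in both mCherry libraries, 4 were lower in both and 4 overlapped, where 18.9% of all 12736 genes were higher and 31.7% lower by that count. The rule used this contrast, so nothing is read from these shares. Copz1, the zeta subunit described further below, had 54.1 and 71.0 TPM with Rnaseh1 against 91.8 and 321 TPM with mCherry. Cope, the epsilon subunit, had 37.8 and 71.5 TPM against 89.4 and 201 TPM, Copb2, beta prime, had 30.2 and 39.1 TPM against 45.6 and 74.9 TPM, and Copg2, a gamma subunit, had 2.93 and 6.08 TPM against 14.6 and 8.43 TPM. These 4 were lower without overlap, with log2 fold changes (of TPM + 1, Rnaseh1 over mCherry) of -1.46, -1.35, -0.75 and -1.20. Arcn1, Copg1, Copa and Copz2 overlapped, at -0.63, -0.31, -0.23 and -0.04. Removing the trend with transcript GC content put Cope and Copz1 at -0.53 and -1.08, Copg1, Copa and Copz2 at 0.21, 0.10 and 0.66, and Copb1 at 2.05 in place of 2.24. The median of the 9 was -0.63 and that of all genes -0.22. SN mCherry replicate 2 held the highest value of Arcn1, Cope, Copz1, Copb2 and Copg1 in the first table, and its difference from replicate 1 moved with GC content over genes (Spearman's rho 0.42). Without it Copz1, Cope, Copb2 and Copg2 were at -0.56, -0.77, -0.40 and -1.56, and the median of the 9 was -0.23. Without SN mCherry replicate 1 in its place the same 4 genes were at -2.36, -1.93, -1.10 and -0.84, with a median of -0.84. Over the 4 libraries left out in turn, Copb1 ran from 1.97 to 2.51.

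**Figure D1:**
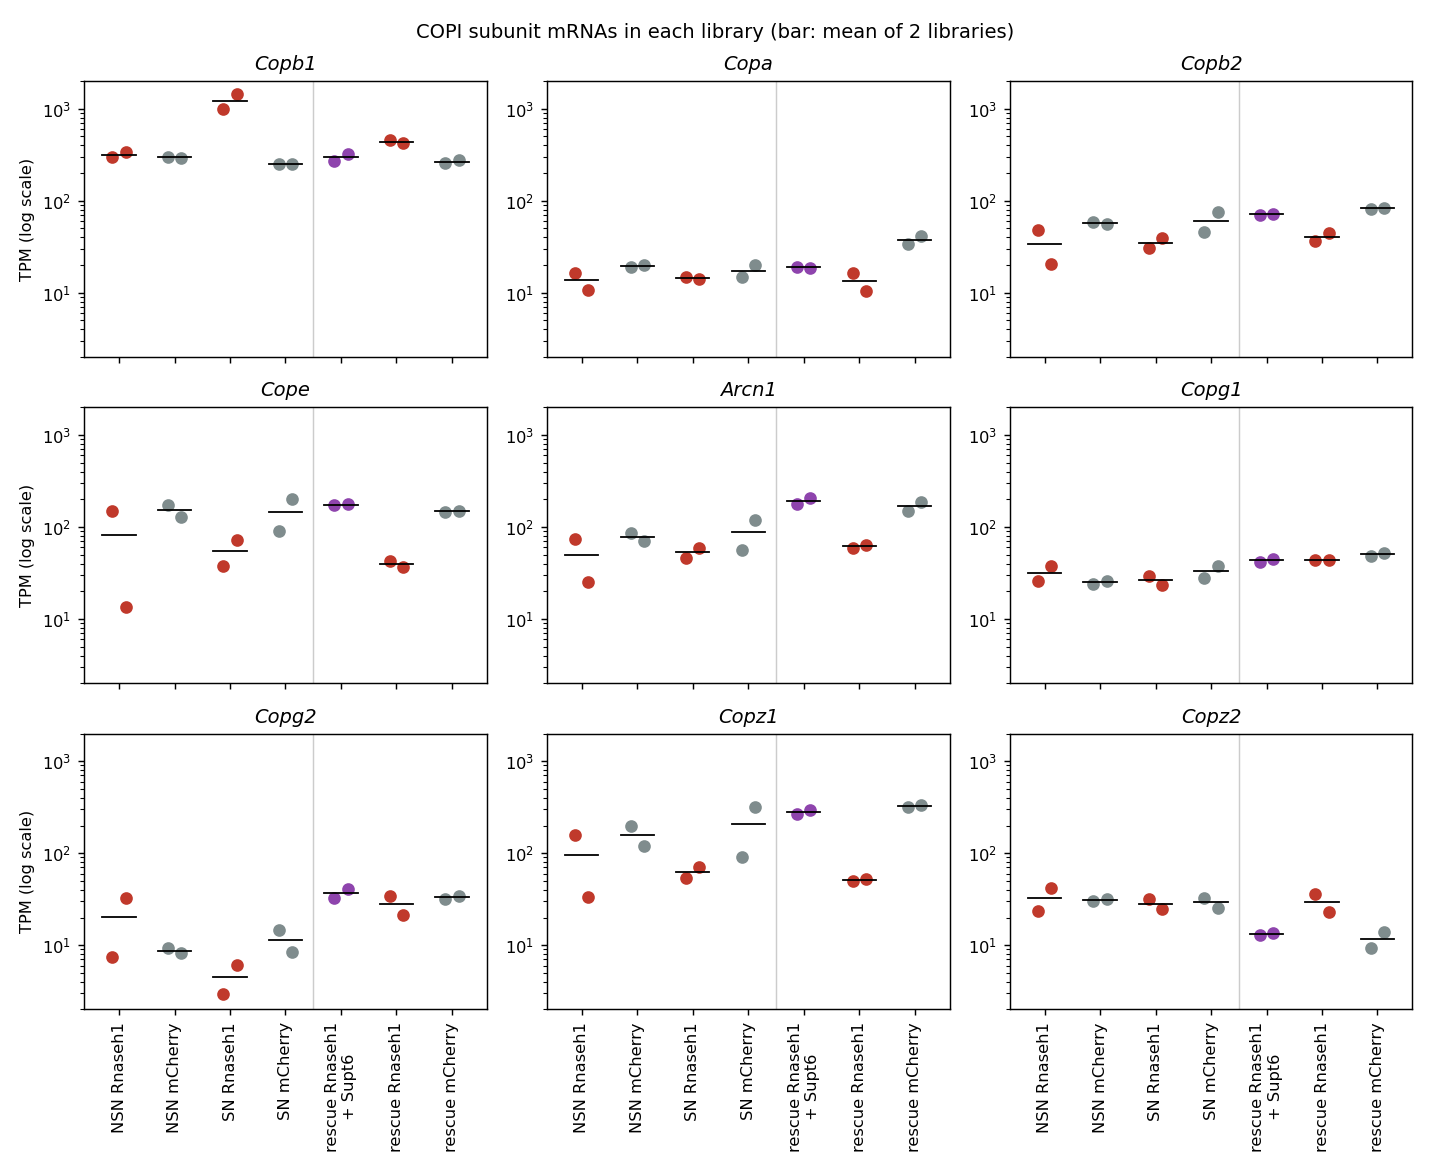
TPM (log axis) of each of the 9 COPI genes in each of the 14 libraries, by group, with a black bar at the mean of 2 libraries; the grey line separates the first table from the rescue set. Copb1 stands at 990 and 1436 TPM in SN Rnaseh1 oocytes, while Copz1, Cope and Arcn1 are low in rescue Rnaseh1 oocytes and Copz2 is high there.

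Within a library, the share of each subunit does not depend on the factor by which the library is scaled. Copb1 made up 80.0% and 82.3% of the summed TPM of the 9 genes in the SN Rnaseh1 libraries, against 40.3% and 23.8% in SN mCherry. It made up 37.1% and 61.1% in NSN Rnaseh1 against 33.3% and 38.9% in NSN mCherry libraries. Its rescue shares were 25.5% and 27.2% with Rnaseh1 plus Supt6, 58.9% and 58.8% with Rnaseh1, and 23.7% and 23.6% with mCherry. The Copb1 share was higher in both Rnaseh1 libraries than in both mCherry libraries of the rescue oocytes. It overlapped in NSN oocytes, where NSN Rnaseh1 replicate 2 alone was high. It was higher in SN oocytes too, but Copb1 was chosen from that contrast, so nothing is read from it. The trend with transcript GC content was not removed from these shares. The 8 other genes summed to 247 and 309 TPM in SN Rnaseh1 against 373 and 809 TPM in SN mCherry oocytes. The rescue sums were 794 and 869 TPM with Supt6 added, 319 and 296 TPM with Rnaseh1, and 820 and 897 TPM with mCherry. The ratio of Copb1 to Copb2, of the other subcomplex, was 32.8 and 36.7 in SN Rnaseh1 against 5.53 and 3.36 in SN mCherry libraries. The rescue ratios were 3.86 and 4.50 with Supt6 added, 12.4 and 9.55 with Rnaseh1, and 3.10 and 3.33 with mCherry.

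**Figure D2:**
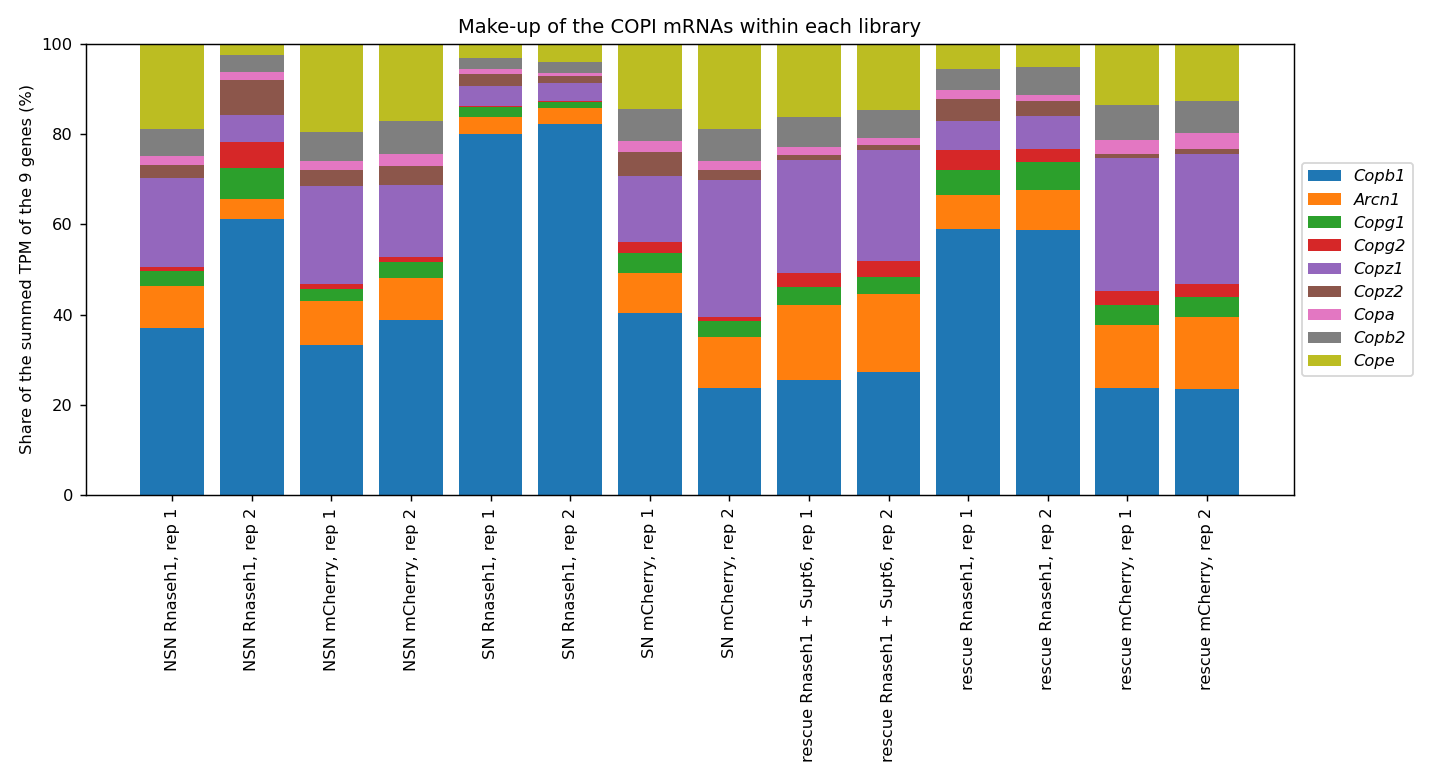
Share of each COPI gene in the summed TPM of the 9 genes (%), 1 stacked bar per library. Copb1 fills 80.0% and 82.3% of the SN Rnaseh1 bars and 58.9% and 58.8% of the rescue Rnaseh1 bars, against 23.7% and 23.6% of the rescue mCherry bars.

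In NSN oocytes no COPI gene passed the test. limma called 0 of the 9 members in either direction, as it called 0.00% of all 12736 genes in each direction, with 353 genes at an unadjusted p under 0.05. The overexpressed Rnaseh1 itself did not pass (log2 1.76, limma adjusted p = 0.755). The lack of calls therefore does not show a lack of response. Copa and Copb2 were lower in both Rnaseh1 libraries than in both mCherry libraries and no member was higher in both, against 22.6% and 10.3% of all genes. Copa had 16.6 and 10.8 TPM with Rnaseh1 against 18.9 and 20.2 TPM with mCherry, and Copb2 had 47.7 and 20.3 TPM against 58.2 and 55.5 TPM. The widest spread was in Cope, with 150 and 13.5 TPM with Rnaseh1 against 174 and 129 TPM with mCherry, which came to -1.69 on the log2 scale (SE 1.0, adjusted p = 0.755). Copz1 had 157 and 33.2 TPM against 195 and 121 TPM, and Arcn1 had 73.6 and 25.2 TPM against 86.6 and 70.4 TPM. Copg1 had 25.9 and 37.7 TPM against 24.2 and 25.9 TPM, Copg2 7.51 and 32.6 TPM against 9.22 and 8.16 TPM, and Copz2 23.4 and 42.3 TPM against 30.1 and 31.5 TPM. The NSN Rnaseh1 libraries thus differed from each other, and which of them stood apart was not tested. Without replicate 2 the log2 fold changes of Cope, Copz1 and Copg2 were 0.00, 0.03 and -0.19. Without replicate 1 in its place, Cope passed at -3.37 (adjusted p = 0.0215), in a fit that put 1053 of 12474 genes lower and 99 higher.

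In the rescue set, the subunit genes differed between Rnaseh1 and mCherry in both directions, as all genes did. Of the 9 members, 2 rose (Copb1 and Copz2), 5 fell (Copa, Copb2, Arcn1, Cope and Copz1) and 2 did not pass (Copg1 and Copg2), with limma and an adjusted p under 0.05. Over all 12859 genes, 20.3% rose and 46.2% fell, so the members' counts were near the shares of all genes. Counted by libraries that did not overlap, 2 members were higher and 6 lower, Copg1 included, against 26.4% and 54.8% of all genes. The median log2 fold change was -1.02 for the members and -0.52 for all genes, and 5 of the 9 members were below that all-gene median. The members' median was -0.43 after median centring, -0.55 after quantile normalization and -0.33 with the GC trend removed, where the all-gene median was 0.064, -0.0073 and 0.0075. Because that shift of all genes depends on the scaling, the other scalings are given with each direction they turn. Median centring added 0.59 to the log2 value of every member. Median centring of the libraries gave 4297 genes higher and 3897 lower, quantile normalization 4152 and 4171, and removal of the GC trend 3580 and 3536, against 2608 and 5945 as deposited.

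Among the F-subcomplex genes, Copb1 rose 1.65-fold with Rnaseh1, to 439 ± 24.3 TPM against 266 ± 15.4 TPM with mCherry (SD, n = 2 each), or 0.72 on the log2 scale (SE 0.11, adjusted p = 0.000819). Arcn1, the delta subunit (ENSMUSG00000032096.16, chromosome 9, 44741564 to 44767845, minus strand), had 58.8 and 64.0 TPM with Rnaseh1 against 149 and 186 TPM with mCherry. It fell by 1.43 on the log2 scale (SE 0.14, adjusted p = 8.39e-05), with both Rnaseh1 libraries below both mCherry libraries. Gene models Gm8750 and Gm8752 match the Arcn1 transcript at 97.0% over 1539 bases and 95.4% over 1692 bases, so its level is uncertain where reads were divided between near copies.

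Of the B-subcomplex, all 3 genes fell as deposited, where 46.2% of all genes fell. Cope, the epsilon subunit that stabilises alpha (ENSMUSG00000055681.14, chromosome 8, 70302518 to 70312993), had 42.4 and 36.7 TPM with Rnaseh1 against 147 and 148 TPM with mCherry, and its log2 fold change was -1.87 (SE 0.10, adjusted p = 6.1e-06). With the GC trend removed it was -0.23 (adjusted p = 0.0737), which ended the call. Copb2 (ENSMUSG00000032458.6, chromosome 9, 98563721 to 98588382), the WD-repeat subunit beta prime, had 36.7 and 44.2 TPM against 82.3 and 83.1 TPM and fell by 1.02 on the log2 scale (SE 0.12, adjusted p = 0.000258). Copa (ENSMUSG00000026553.17, chromosome 1, 172082529 to 172122330), the WD-repeat subunit alpha, had 16.2 and 10.5 TPM against 33.6 and 41.3 TPM and fell by 1.44 (SE 0.22, adjusted p = 0.000919). In all 3 genes the libraries of the groups did not overlap, where 54.8% of all genes were lower without overlap. Copa shares 195 exon bases with Ncstn on the other strand, which had 4.81 and 3.11 TPM with Rnaseh1 and 26.8 and 27.7 TPM with mCherry, and strand use in the counting is not given in the sources used here.

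The zeta genes, small-chain subunits of the F-subcomplex encoded by alternative genes, moved apart. Copz1 (ENSMUSG00000060992.9, chromosome 15, 103272714 to 103299868) had 50.4 and 51.9 TPM with Rnaseh1 against 318 and 338 TPM with mCherry. It was 6.41-fold lower, the largest difference of the 9 members in this comparison as deposited, at -2.66 on the log2 scale (SE 0.09, adjusted p = 1.08e-06). Copz2 (ENSMUSG00000018672.15, chromosome 11, 96849870 to 96861203) had 36.2 and 23.0 TPM with Rnaseh1 against 9.25 and 13.9 TPM with mCherry. It rose 2.56-fold, at 1.28 on the log2 scale (SE 0.27, adjusted p = 0.00435). That value was 1.86 after median centring, 1.95 after quantile normalization and 2.70 with the GC trend removed, then above the size of the Copz1 value (-1.88). Copz2 supplied 41.8% and 30.7% of the summed zeta TPM with Rnaseh1, against 2.83% and 3.94% with mCherry. In SN oocytes that share was 37.0% and 25.8% with Rnaseh1 against 26.4% and 7.29% with mCherry, and in NSN oocytes 13.0% and 56.1% against 13.4% and 20.7%, so the groups overlapped there. Summed zeta mRNA was 86.7 and 74.9 TPM with Rnaseh1 and 327 and 352 TPM with mCherry in the rescue set.

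Each zeta gene also hosts a microRNA in an intron, and their mature 3p sequences are shown because they share a seed (bases 2 to 8, in capitals; RefSeq, GRCm38.p6).
mmu-miR-152-3p, in Copz2 (chr11:96850439-96850459, plus strand): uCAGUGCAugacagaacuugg
mmu-miR-148b-3p, in Copz1 (chr15:103285185-103285206, plus strand): uCAGUGCAucacagaacuuugu
MicroRNAs were not measured in these libraries of polyadenylated RNA, so the host genes' values say nothing of the mature forms.

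**Figure D3:**
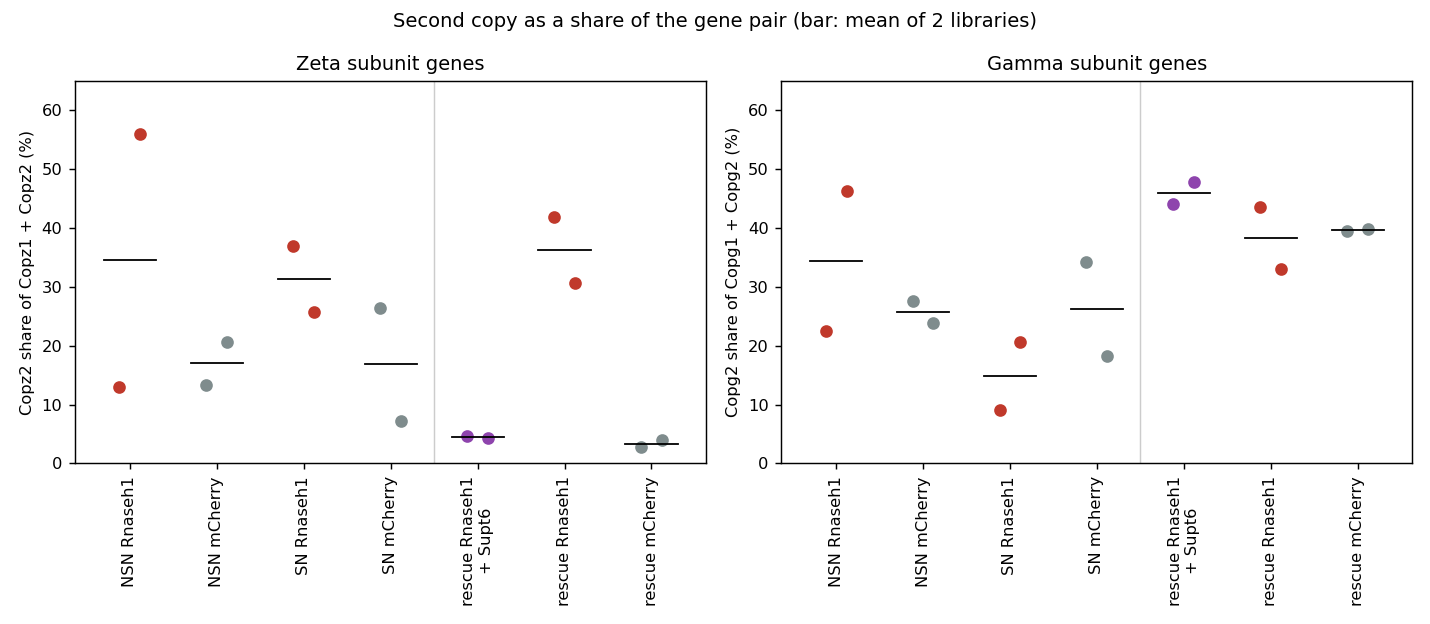
Share of Copz2 in Copz1 plus Copz2 (left) and of Copg2 in Copg1 plus Copg2 (right), in % of summed TPM, 1 point per library with a bar at the mean of 2. In the rescue set Copz2 supplies 41.8% and 30.7% of zeta with Rnaseh1, against 2.83% and 3.94% with mCherry, while the Copg2 shares of these groups overlap.

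The gamma genes, large-chain subunits of the F-subcomplex, did not pass the test in the rescue set as deposited. Copg1 (ENSMUSG00000030058.17, chromosome 6, 87887814 to 87913595) had 43.9 and 43.8 TPM with Rnaseh1 against 48.8 and 52.3 TPM with mCherry, a log2 fold change of -0.20 (adjusted p = 0.157). Its sign depended on the scaling: the value was 0.39 after median centring, 0.33 after quantile normalization and 0.87 with the GC trend removed (adjusted p = 0.0149, 0.0270 and 0.000419). Copg2 (ENSMUSG00000025607.15, chromosome 6, 30747554 to 30896794, minus strand) had 34.0 and 21.6 TPM against 32.0 and 34.5 TPM, a log2 fold change of -0.29 (adjusted p = 0.298), which became 0.30 after median centring and 0.33 after quantile normalization. Without Rnaseh1 replicate 1 it passed as lower, at -0.60 (adjusted p = 0.0196). Copg2 shares 912 exon bases with Mest on the other strand, and Mest had 27.3 and 37.8 TPM with Rnaseh1 against 184 and 173 TPM with mCherry. Copg1 shares 941 exon bases with the antisense gene model Gm26636, which was at most 2.89 TPM in any library. Copg2 made up 43.6% and 33.0% of summed gamma TPM with Rnaseh1 and 39.6% and 39.8% with mCherry.

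**Figure D4:**
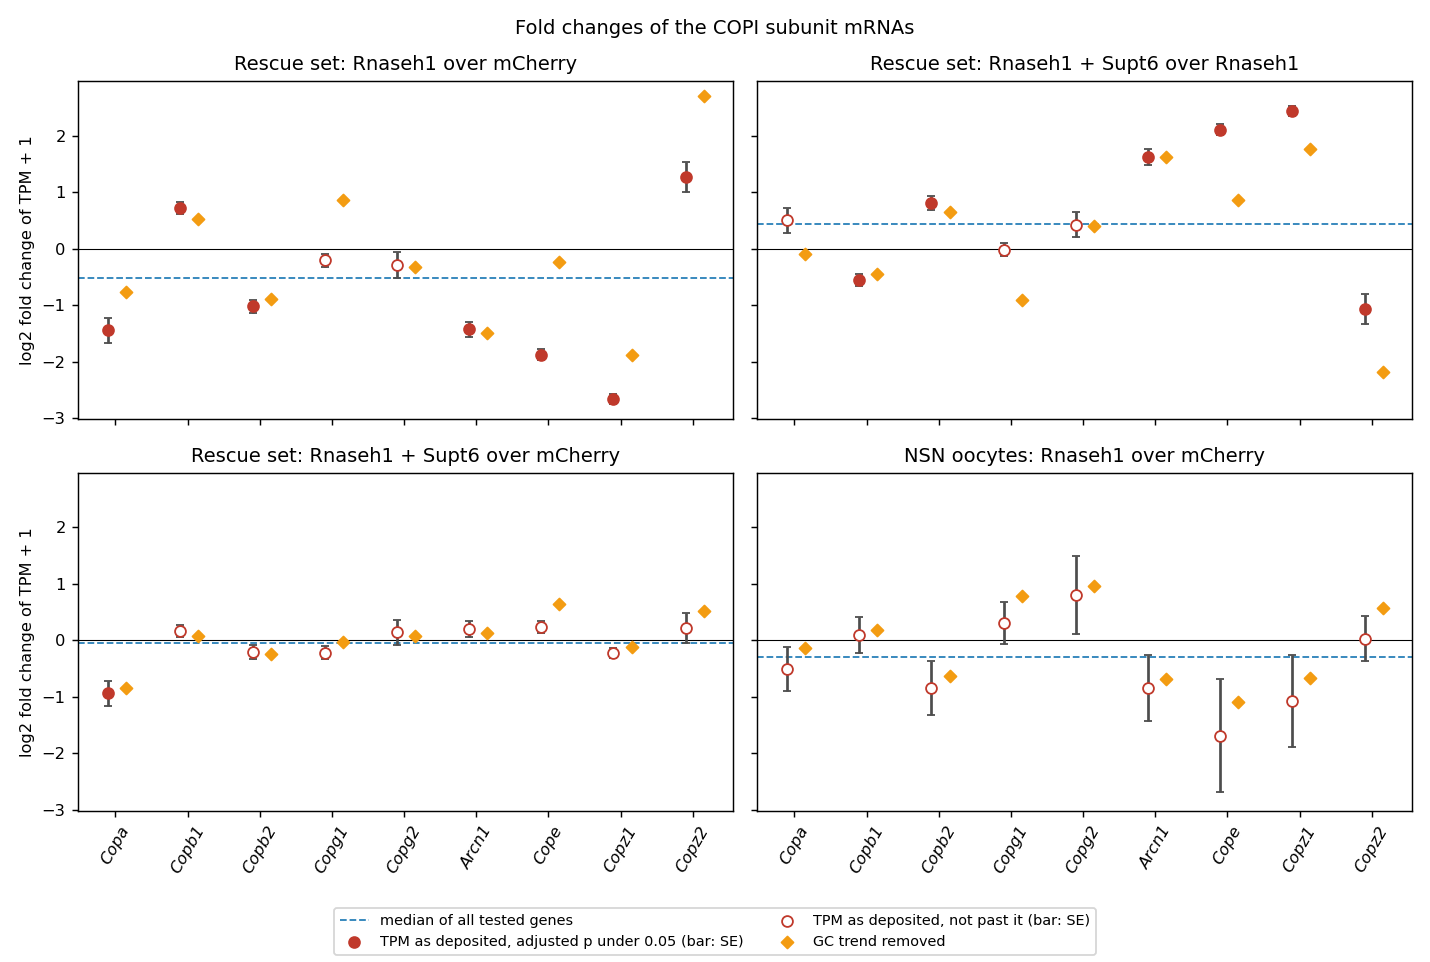
Log2 fold change of TPM + 1 of each COPI gene in the 4 tested comparisons: red circles as deposited with their SE (filled where the adjusted p is under 0.05), orange diamonds with the GC trend removed, dashed line at the median of all genes. For Rnaseh1 over mCherry in the rescue set, Copz1 lies at -2.66 and Copz2 at 1.28, and removal of the GC trend moves Cope to -0.23, Copg1 to 0.87 and Copz2 to 2.70.

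GC content of the transcript moved with these comparisons over all genes. Spearman's rho between transcript GC content and the log2 fold change of Rnaseh1 over mCherry was -0.51 over 12582 genes in the rescue set, -0.46 over 12356 genes in SN oocytes and -0.30 in NSN oocytes. Copb1 had the lowest GC content of the members (42.6%), followed by Arcn1 (44.0%), and Copz2 (54.4%) and Cope (56.5%) had the highest. Over the 9 members rho was -0.18 in the rescue set, -0.27 in SN and -0.35 in NSN oocytes, given as a description. The part of GC content in the members' values was not tested beyond the removal of the trend. With the GC trend removed in the rescue set, Copb1 stayed higher at 0.53 (adjusted p = 0.00296) as did Copz2 at 2.70 (adjusted p = 0.000122), Cope no longer passed, Copg1 passed as higher, and Copz1, Arcn1, Copb2 and Copa stayed lower at -1.88, -1.50, -0.89 and -0.76 (adjusted p = 0.0199 for Copa).

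With Supt6 added to Rnaseh1, compared with Rnaseh1 alone, 4 members rose, 2 fell and 3 did not pass, where 41.6% of all genes rose and 17.4% fell. The members' counts were near these shares of all genes. Without overlap, 5 members were higher and 2 lower, against 54.5% and 25.5% of all genes. This comparison shares the Rnaseh1 libraries with the preceding one, so opposite signs are no independent result, and the values are set side by side. Its groups differ in Rnaseh1 as well as in Supt6. Copz1 had 267 and 296 TPM with Supt6 added against 50.4 and 51.9 TPM with Rnaseh1 alone, a 5.50-fold rise (log2 2.44, SE 0.09, adjusted p = 2.41e-06). Cope had 172 and 176 TPM against 42.4 and 36.7 TPM, a 4.40-fold rise (log2 2.11, adjusted p = 5.73e-06). With the GC trend removed, Cope was at 0.86, Copz1 at 1.77 and Copz2, which fell, at -2.18, and median centring moved every member by -0.51. Arcn1 had 177 and 207 TPM against 58.8 and 64.0 TPM, a 3.13-fold rise (log2 1.63, adjusted p = 6.09e-05). Copb2 had 70.3 and 72.3 TPM against 36.7 and 44.2 TPM and rose by 0.81 (adjusted p = 0.00105), a call that ended after median centring (0.29, adjusted p = 0.0774). Copb1 fell by 0.56 on the log2 scale (adjusted p = 0.0035). Copz2 had 13.1 and 13.6 TPM against 36.2 and 23.0 TPM and fell by 1.06 (SE 0.27, adjusted p = 0.0117). The Copz2 call was lost without Supt6 replicate 1 (adjusted p = 0.0615) and without Supt6 replicate 2 (adjusted p = 0.0552). Copa (0.51) did not pass and was negative under each other scaling and with the GC trend removed, and Copg2 (0.43) did not pass and was negative after median centring and quantile normalization. Without Rnaseh1 replicate 1 both passed as higher, Copa at 0.80 (adjusted p = 0.00749) and Copg2 at 0.75 (adjusted p = 0.00984). Copg1 was at -0.02 as deposited and passed as lower after median centring (-0.53), quantile normalization (-0.48) and removal of the GC trend (-0.90). The median of the members was 0.51, against 0.44 for all genes, and it was -0.0063 after median centring and -0.099 after quantile normalization. All genes split into 5343 higher and 2235 lower as deposited, 3365 and 3856 after median centring, 3672 and 3656 after quantile normalization, and 3119 and 3212 with the GC trend removed.

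Set against mCherry, oocytes with Rnaseh1 plus Supt6 differed in 1 member. Copa had 19.3 and 18.8 TPM with Rnaseh1 plus Supt6 against 33.6 and 41.3 TPM with mCherry, or -0.94 on the log2 scale (SE 0.22, adjusted p = 0.0357), where 7.60% of all genes fell and 5.71% rose. That call was lost without any 1 of the 4 libraries compared (adjusted p 0.0991 to 0.199). The other 8 members lay between -0.22 and 0.24 and did not pass, which does not show that they were equal. Copz1 had 267 and 296 TPM against 318 and 338 TPM (-0.22, adjusted p = 0.167), which passed as lower after quantile normalization (-0.37, adjusted p = 0.0387). Cope had 172 and 176 TPM against 147 and 148 TPM (0.24, adjusted p = 0.185), which passed with the GC trend removed (0.64, adjusted p = 0.00979). Copz2 supplied 4.65% and 4.38% of zeta TPM with Supt6 added, against 2.83% and 3.94% with mCherry.

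Between the stages, SN against NSN, the values are a description because SN libraries chose Copb1. With mCherry, Copb1 was lower in both SN libraries than in both NSN libraries (log2 -0.23) and Copg1 was higher in both (0.37), with 7 members overlapping, where 19.0% of all genes were lower and 8.43% higher. Without SN mCherry replicate 2, Copb1 was at -0.23 and Copg1 at 0.16, and the other 7 lay between -0.74 and 0.69. With Rnaseh1, Copb1 was higher in both SN libraries (3.83-fold, log2 1.91) and Copg2 lower in both (log2 -1.68), where 14.1% of all genes were higher and 12.5% lower. The other 7 members lay between -0.25 and 0.27 and overlapped. Without NSN Rnaseh1 replicate 2, which held the high Copg2 value of 32.6 TPM, Copg2 was at -0.69 and Copb1 at 2.01, and the other 7 lay between -1.51 (Cope) and 0.25 (Copz2).

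Levels in TPM, which are per transcript length, can be ordered within a group. In rescue mCherry oocytes Copz1 (328 ± 14.3 TPM) was above Copb1 (266 ± 15.4 TPM), Arcn1 (168 ± 26.1 TPM), Cope (147 ± 1.07 TPM) and Copb2 (82.7 ± 0.59 TPM), each step without overlap (SD, n = 2). Copg1 (50.5 ± 2.47 TPM) came next, then Copa and Copg2, which overlapped, and Copz2 last (11.6 ± 3.25 TPM). In NSN mCherry oocytes Copb1 (296 ± 3.05 TPM) came before Copz1 and Cope, which overlapped, then Arcn1, Copb2, Copz2, Copg1, Copa and Copg2 (8.69 ± 0.75 TPM). In rescue Rnaseh1 oocytes Copb1 (439 ± 24.3 TPM) was followed at a distance by Arcn1 (61.4 ± 3.71 TPM) and Copz1 (51.2 ± 1.05 TPM), and Copa was lowest (13.3 ± 4.02 TPM).

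Genes that act with coatomer were counted from lists, to be read against all genes of the rescue set, of which 46.2% fell and 20.3% rose with Rnaseh1. Of 12 Arf GTPases and their exchange factors and activating proteins, 10 (83.3%) fell and none rose with Rnaseh1. Their median log2 fold change was -1.50, against -0.52 for all genes. After median centring 6 fell, where 3897 of all 12859 genes fell. The count was also smaller than 10 without mCherry replicate 2. Arf1, which recruits coatomer, had 113 ± 9.39 TPM with Rnaseh1 against 682 ± 2.19 TPM with mCherry (log2 -2.58, SE 0.09, adjusted p = 1.11e-06). Gbf1, the exchange factor that loads Arf1 at the Golgi, had 1.20 ± 0.19 TPM against 39.7 ± 3.83 TPM (log2 -4.21, adjusted p = 1.42e-05). Arf3 and Arf5, further Arf GTPases, fell as well, at -2.50 and -3.90. After removal of the GC trend Arf1, Gbf1, Arf3 and Arf5 were at -1.35, -2.99, -1.27 and -2.05. With Supt6 added, 10 of the 12 were higher than with Rnaseh1 alone and none lower. Over all genes 41.6% were higher and 17.4% lower. Gbf1 was at 18.8 ± 7.55 TPM with Supt6 added. Compared with mCherry, 4 of the 12 (33.3%) were lower and none higher, where 7.60% of all genes were lower and 5.71% higher.

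Of 7 tested p24 proteins, cargo receptors that bind coatomer, 5 (71.4%) fell and 1 (14.3%) rose with Rnaseh1 in the rescue set, against 46.2% and 20.3% of all genes. After median centring 3 fell and 2 rose, where 3897 of all 12859 genes fell and 4297 rose. After quantile normalization 2 rose (4152 of 12859 genes), and with the GC trend removed 2 fell (3536 of 12582 genes). The 1 that rose, Tmed7, named after its value was seen, was at 0.94 (adjusted p = 0.0491). Its call ended with a pseudocount of 0.1, without a filter, with the replicate block, without the eBayes trend, and without Rnaseh1 replicate 1, mCherry replicate 1 or mCherry replicate 2 (adjusted p 0.0532 to 0.196), and it was not tested under the filter at 5 TPM. Tmed9 had 39.9 ± 3.03 TPM with Rnaseh1 against 112 ± 4.65 TPM with mCherry (log2 -1.47, adjusted p = 1.63e-05), and Tmed2 was at -1.21; with the GC trend removed Tmed9 was at -0.54. Tmed3 (-2.02) and Tmed10 (-0.73) fell as deposited, and their calls ended with the GC trend removed (-0.47 and -0.09), that of Tmed10 also after median centring (-0.14). Of the KDEL receptors, which return ER proteins in COPI vesicles, Kdelr1 had 1.33 ± 0.54 TPM with Rnaseh1 against 54.2 ± 2.49 TPM with mCherry (log2 -4.59, SE 0.21, adjusted p = 2.8e-06), or -3.39 with the GC trend removed. Kdelr2 had 75.0 ± 23.0 TPM against 45.7 ± 1.32 TPM and did not pass (0.67, adjusted p = 0.0853), but passed as higher after median centring (1.25), quantile normalization (1.13) and removal of the GC trend (1.01), and without Rnaseh1 replicate 2 (0.98). Of 8 genes of the Dsl1 tether and the SNAREs that receive COPI vesicles at the ER, 6 (75.0%) fell and 1 (12.5%) rose, against 46.2% and 20.3% of all genes, and 2 rose without Rnaseh1 replicate 2. The SNARE gene Bnip1 had 12.1 ± 1.05 TPM against 93.3 ± 2.46 TPM (log2 -2.85), Zw10, a tether subunit, was at -1.76 and the SNARE gene Stx18 at -1.57. Use1, another SNARE gene of this step, rose to 336 ± 17.2 TPM with Rnaseh1 against 93.8 ± 5.40 TPM with mCherry (log2 1.83, SE 0.10, adjusted p = 5.74e-06). Removal of the GC trend put Bnip1, Stx18 and Use1 at -1.43, -0.77 and 3.42. In NSN oocytes none of the tested genes of these lists passed, as none of all genes did.

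The genes most like Copb1 over the 8 libraries of the first table, by Pearson's r of log2(TPM + 1) among 6603 genes with a mean of at least 5 TPM, were Mcmbp (r 0.985), Ankrd26 (0.985), Iws1 (0.979), Slain2 (0.977) and Ebag9 (0.976). The SN Rnaseh1 libraries carry this likeness: Mcmbp averaged 171 TPM there, against 19.3 to 25.8 TPM in the other 3 groups. Over the 6 rescue libraries the same genes had r of 0.87, -0.70, 0.42, 0.94 and 0.94 with Copb1. Among the members, Copb2 went with Arcn1 (r 0.97), Cope (0.97) and Copz1 (0.96) over the 8 libraries. Each of these genes was lowest in NSN Rnaseh1 replicate 2 and highest in SN mCherry replicate 2 of that table. How far r rests on these libraries was not tested. Over the 6 rescue libraries Copb2 went with the same genes at 0.94, 0.93 and 0.98. Copz2 went with Copb1 in the rescue libraries (0.94) but not over the first 8 (-0.18). These correlations share libraries and scaling and are given as a description.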

How the data were processed

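Polyadenylated RNA was reverse-transcribed with SuperScript II, amplified with KAPA HiFi and made into libraries (Vazyme TD503), per the labels' protocols. The authors deposited TPM (transcripts per 1000000 transcripts) per gene in 2 tables, and the submitters' processing notes name mm10, RSEM 1.3.3, STAR 2.7.0d, Trim Galore 0.6.7 and DESeq2 with no role. TPM keeps no read depth, so no counting error can be given, and amplification can favour some base compositions. Column names were matched to sample titles, reading m as mCherry and R as Rnaseh1. Each table was fitted alone with limma 3.58.1 (eBayes with trend) in R 4.3.3 on log2(TPM + 1), over genes that reached a TPM of 1 in 2 or more libraries, with 1 spread for all groups, Benjamini-Hochberg adjustment over all tested genes and a threshold of 0.05. Fold changes are on that scale, which understates changes of low genes. Gene coordinates, GC content and length (of the longest protein-coding transcript) are from GENCODE M21 (GRCm38), which held 34611 of the 35389 identifiers. Near copies were searched with BLAST 2.17.0. The script was tested on simulated data.

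The members, the gene lists and the tests were chosen with earlier results of these data known. Genes named are all members, Rnaseh1 and Supt6, up to 4 genes per list with the smallest rescue p (Rnaseh1 over mCherry), and the 5 genes most like Copb1. The settings varied were the pseudocount (0.1 or 5), the filter (none, or TPM 5 in its place), the scaling (medians centred over genes averaging 10 TPM or more, or quantile normalization), removal of a lowess trend with transcript GC content per library, the replicate number as a block and each library left out. Leaving out NSN Rnaseh1 replicate 2 together with SN mCherry replicate 2, and eBayes without trend, were chosen after seeing the data.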

Additional observations from a re-analysis of the deposited data

How the results depend on the processing

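In the rescue set, the counts of 2 members higher and 5 lower with Rnaseh1 than with mCherry moved by no more than 1.5 times under any alternative run. Signs turned for genes that did not pass. For Rnaseh1 over mCherry, Copg1 (-0.20 as deposited) was 0.39, 0.33 and 0.87 after median centring, quantile normalization and removal of the GC trend, Copg2 (-0.29) was 0.30 and 0.33 after median centring and quantile normalization, and Copg2 ran from -0.60 to 0.032 with 1 library left out. For Supt6 added to Rnaseh1, Copa was -0.0063, -0.11 and -0.096 and Copg2 -0.086 and -0.099 in the same order of settings. With 1 library left out, Copg1 ran from -0.072 to 0.035 there, and the count of lower members from 1 to 2. For Rnaseh1 plus Supt6 over mCherry, with 1 library left out, Copg2 ran from -0.018 to 0.30 and Copz2 from -0.055 to 0.48. There, 1 member was higher with the GC trend removed, and the count of lower members was 0 with a pseudocount of 0.1, without a filter, without the eBayes trend and with each library left out, and 2 after quantile normalization. In NSN oocytes, leaving out NSN Rnaseh1 replicate 2 together with SN mCherry replicate 2 gave Copb1 -8.35e-05, Copg2 -0.19, Cope 0.0014, Copz1 0.032 and Copz2 -0.38. With 1 library left out, Copb1 ran from -8.35e-05 to 0.19, Copg2 from -0.19 to 1.80, Cope from -3.37 to 0.0014, Copz1 from -2.18 to 0.032, Copz2 from -0.38 to 0.45, and the count of lower members from 0 to 1. Where a scaling turned a sign, the cause was not tested. Replicate numbers did not pair the libraries (correlations of deviations -0.52 to 0.17 over 6 pairs of groups and -0.00048 to 0.04 over 3). The -0.52 was between NSN Rnaseh1 and SN mCherry. Their differences of replicate 2 minus replicate 1 moved with GC content at Spearman's rho -0.42 and 0.42. A factor shared by these libraries was not tested. With the replicate number as a block, 2 members were higher and 5 lower with Rnaseh1 than with mCherry in the rescue set. No call of a member changed, and Tmed7 of the p24 list no longer passed (adjusted p = 0.0570). With 2 libraries a group and no depth, small differences may have gone undetected, also in low genes such as Copg2 in the first table.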

Other observations

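Genes of neighbouring coats and of the Golgi were counted in the rescue set from lists, to be read against all genes, of which 46.2% fell and 20.3% rose with Rnaseh1. Of 13 tested COPII genes, which coat vesicles leaving the ER, 7 (53.8%) fell and 2 (15.4%) rose with Rnaseh1 compared with mCherry (median log2 fold change -0.88, against -0.52 for all genes), shares near those of all genes. Sec13, of the outer COPII coat, had 74.6 ± 2.21 TPM with Rnaseh1 against 329 ± 20.4 TPM with mCherry (SD, n = 2 each; log2 -2.12, adjusted p = 2.04e-06), Preb, the exchange factor of Sar1, was at -4.11 and Sec16a, which organises exit sites, at -1.96. Sar1b, the GTPase that starts the coat, rose to 517 ± 26.0 TPM with Rnaseh1 against 226 ± 7.45 TPM with mCherry (log2 1.19, adjusted p = 1.92e-05). With the GC trend removed Sec13, Preb and Sec16a were at -1.02, -3.05 and -0.84. With Supt6 added, 6 of the 13 (46.2%) were higher and 2 (15.4%) lower than with Rnaseh1 alone, against 41.6% and 17.4% of all genes.

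Of 18 tested Golgi tethers and SNAREs, 9 fell and 3 rose with Rnaseh1, shares near those of all genes. After median centring 7 rose, where 4297 of all 12859 genes rose. With the GC trend removed 7 rose (3580 of 12582 genes), and after quantile normalization 5 rose (4152 of 12859 genes). Stx5a, a SNARE of the ER to Golgi step, had 29.5 ± 4.50 TPM with Rnaseh1 against 448 ± 25.3 TPM with mCherry (log2 -3.89, adjusted p = 8.21e-07), and Cog4 and Cog8, of the conserved oligomeric Golgi tether, were at -3.24 and -3.71. Bet1, a SNARE that works with Stx5a, rose to 324 ± 19.7 TPM against 117 ± 5.64 TPM (log2 1.47, adjusted p = 1.21e-05). Removal of the GC trend put Stx5a, Cog4 and Cog8 at -2.81, -2.24 and -2.24. Of 11 tested clathrin adaptor genes of AP-1 and AP-2, which resemble the F-subcomplex, 8 (72.7%) fell and none rose. Over all genes 46.2% fell and 20.3% rose. With the GC trend removed 1 adaptor gene rose, where 3580 of 12582 genes rose. Their medium chains Ap1m1, Ap1m2 and Ap2m1 were at -4.38, -3.36 and -3.99, and Ap1s1, a small chain, at -4.22; with the GC trend removed they ran from -3.19 to -2.43. With Supt6 added, 7 of these 11 (63.6%) and 10 of the 18 Golgi genes (55.6%) were higher than with Rnaseh1 alone, against 41.6% of all genes. These comparisons share the Rnaseh1 libraries. The lists were not tested against other genes.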
